A study of Mus musculus with 15 samples.

Results

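The fat around the aorta of the chest (thoracic perivascular adipose tissue, tPVAT) and of the abdomen (abdominal perivascular adipose tissue, aPVAT) was compared for its response to the loss of Prdm16 in adipocytes. The quantity described here is the interaction of depot and genotype, which is the log2 fold change of knockout against control in aPVAT minus the same change in tPVAT. A negative interaction means that a gene rose less, or fell more, in aPVAT than in tPVAT, and a positive one means the reverse. All 15 libraries of the series entered it, in 4 groups from mice aged 11 weeks. The controls carried Prdm16flox alleles without Cre and gave 4 tPVAT and 4 aPVAT libraries. The knockouts (cKO) carried Prdm16flox with AdipoQCre+, a Cre recombinase driven by the adiponectin gene, which is active in brown, beige and white adipocytes alike, and gave 4 tPVAT and 3 aPVAT libraries (numbers 1, 3 and 4). No group with Cre and unfloxed alleles was analysed here, so an effect of Cre itself and of the deletion cannot be told apart. Whether libraries of a group come from different mice is not stated in the labels. The p-values therefore rest on the spread among libraries, part of which may be technical.

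PRDM16 is a zinc-finger coregulator that joins DNA-binding factors such as EBF2, PPARs and C/EBPs and favours the brown and beige adipocyte program over the white one. Thermogenic adipocytes burn fatty acids in mitochondria that hold the uncoupling protein UCP1. Perivascular fat of the thoracic aorta is rich in brown-like adipocytes, and that of the abdominal aorta is a mixture closer to white and beige fat. Both surround the vessel wall and release factors that act on it, such as angiotensinogen and adipokines.

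Each library held 37.8 to 68.7 M counts. The depot labels matched the positional genes: Hoxc10, a posterior patterning gene, stood at a mean of 22.5 CPM (counts scaled to library size, on the same scale in all libraries) in aPVAT controls and 0.257 CPM in tPVAT controls, and Ucp1 stood at 546 and 6257 CPM. The share of structural RNA was highest in aPVAT cKO 4 (2.24%) and next in aPVAT control 2 (0.929%), and ranged from 0.0704% to 0.213% elsewhere. Mitochondrial transcripts made up 13.03% to 15.99% of aPVAT counts and 26.5% to 36.4% of tPVAT counts. These are whole tissues, so fewer cells of a type and less RNA per cell cannot be told apart in any value below.

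Prdm16 itself stood at 46.4, 41.1, 46.3 and 55.6 CPM in tPVAT controls 1 to 4 and at 22.4, 21.2, 22.2 and 23.8 CPM in tPVAT cKO. Its aPVAT values were 26.8, 21.4, 23.3 and 23.4 CPM in controls and 15.1, 14.7 and 18.3 CPM in cKO 1, 3 and 4. Knockout libraries lay below all controls of their depot, and tPVAT cKO overlapped aPVAT controls. The interaction was 0.51 (SE 0.142, 95% interval 0.21 to 0.81, adjusted p = 0.154), a smaller fall in aPVAT that missed the threshold with edgeR. DESeq2 called it (0.52, adjusted p = 0.0406). Reads from outside the floxed part enter this gene-level value, and Prdm16 overlaps a gene on the other strand.

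Of 19645 genes tested, 154 were called in the interaction at an adjusted p under 0.05 (0.784%). Of these, 31 were above 0 (0.158% of genes tested) and 123 below 0 (0.626%), while 51.1% of all genes tested lay below 0. At an unadjusted p under 0.05 there were 1738 genes. The called interaction was at least 1 on the log2 scale in 79 genes and at least 2 in 30. Knockout and control differed in 2367 genes in tPVAT (12.0%) and in 301 genes in aPVAT (1.53%), at the same threshold. The difference between these 2 counts is not itself a test of depot. Of 2140 genes called in tPVAT and not in aPVAT, 88.7% had the same sign in aPVAT and 110 (5.14%) were called in the interaction. Of 74 called in aPVAT and not in tPVAT, 82.4% had the same sign in tPVAT and 11 (14.9%) were called in the interaction. In both depots 227 genes were called, and all 227 had the same direction. Among those 227, 32 were also called in the interaction.

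The 154 genes fell into a few classes by the genotype effect in each depot. Genes called in tPVAT alone made up 110, of which 83 rose and 27 fell there. Another 24 rose in both depots, 8 fell in both, 11 were called in aPVAT alone (all lower in cKO), and Phospho1, a phosphatase linked to phosphocholine turnover, was called in neither. No gene was called in opposite directions in the 2 depots. Of the 154 genes, 138 were protein coding and 57 overlapped a gene on the opposite strand. The shares over all genes tested are not given, so neither count sets the called genes apart.

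**Figure D1:**
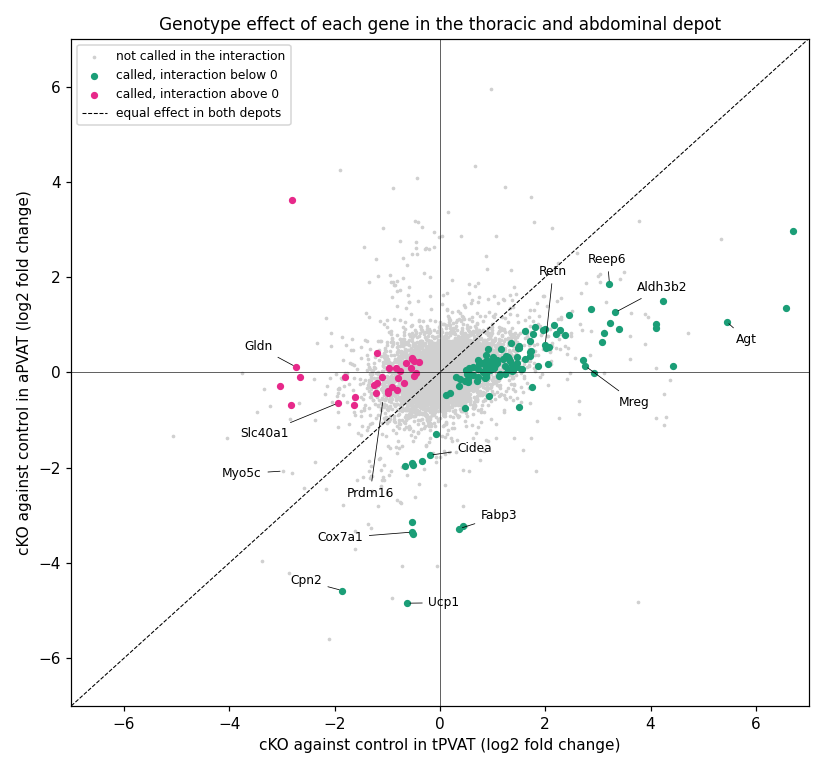
Each point is a gene, with the log2 fold change of cKO against control in tPVAT on the horizontal axis and in aPVAT on the vertical axis. Coloured points are the 154 genes called in the interaction, the dashed line marks equal effects, and 2 genes lie beyond the axes. Called genes below 0 lie either to the right near the horizontal axis (Agt, Mreg) or at the bottom (Ucp1, Cox7a1, Cpn2).

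The largest class rose with the loss of Prdm16 in tPVAT and rose less, or did not pass, in aPVAT. All 24 interaction genes that rose in both depots rose more in tPVAT, with a median log2 fold change of 2.09 there and 0.89 in aPVAT. All 24 were also higher in aPVAT than in tPVAT controls, against 52.5% of all genes tested. The control libraries also enter the interaction, so this is no separate result. This class held white-fat genes, enzymes of lipid and aldehyde metabolism and genes of the angiotensin and prostaglandin systems.

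Agt, the precursor of all angiotensin peptides (chromosome 8, 124556534 to 124569706 of GRCm38, minus strand), stood at 1.35, 1.63, 0.873 and 1.40 CPM in tPVAT controls and at 56.8, 74.5, 53.2 and 45.9 CPM in tPVAT cKO. In aPVAT controls it already stood at 55.1, 44.9, 38.9 and 56.5 CPM, and in aPVAT cKO at 100, 100 and 107 CPM. Thus tPVAT cKO libraries reached the range of aPVAT controls, and aPVAT cKO libraries lay above every other library. The fold changes were 5.44 (SE 0.196) in tPVAT and 1.07 (SE 0.16) in aPVAT, and the interaction was −4.38 (SE 0.253, adjusted p = 1.45e-07). In amounts the rises differed between depots by −2.86 CPM (SE 7.69), less than the SE. Enpep, the aminopeptidase that cleaves angiotensin II, went from 21.7 ± 2.46 to 99.6 ± 20.2 CPM in tPVAT (SD, n = 4 each) and from 71.8 ± 9.86 (n = 4) to 125 ± 13.3 CPM (n = 3) in aPVAT (interaction −1.40, SE 0.203, adjusted p = 0.00216). Ptges, a synthase of prostaglandin E2, rose from 14.6 to 70.7 CPM in tPVAT and from 37.6 to 69.2 CPM in aPVAT (interaction −1.39, SE 0.236). Ptger3, a receptor for prostaglandin E2, rose by 1.61 in tPVAT and 0.87 in aPVAT on the log2 scale (interaction −0.74, SE 0.141, adjusted p = 0.0164), and was named after its values were seen. Ptger3 missed the threshold without aPVAT cKO 3 (adjusted p = 0.0523) and with the numbers 1, 3 and 4 only (0.0591).

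Retn, the adipokine resistin, stood at 76.6, 81.6, 66.9 and 74.7 CPM in tPVAT controls and at 320, 369, 263 and 248 CPM in tPVAT cKO. It stood at 522, 426, 496 and 525 CPM in aPVAT controls and at 768, 667 and 768 CPM in aPVAT cKO, so the 4 groups did not overlap. The interaction was −1.42 (SE 0.169, adjusted p = 0.000395). In amounts the rises differed by 17.6 CPM (SE 49.5), less than the SE, which leaves room for a difference either way. Cfd, the adipocyte serine protease adipsin, rose in tPVAT from 1925 to 4587 CPM, and stood at 7239 and 9210 CPM in aPVAT controls and cKO, a difference that missed the threshold (interaction −0.91, SE 0.151, adjusted p = 0.00622). Igf1, a growth factor, behaved likewise, with 42.2 and 97.3 CPM in tPVAT and 139 and 169 CPM in aPVAT (interaction −0.93, SE 0.16). Its call was lost when only the numbers 1, 3 and 4 were used (adjusted p = 0.0591). Psat1, an enzyme of serine synthesis, rose from 9.62 to 37.4 CPM in tPVAT and from 72.2 to 134 CPM in aPVAT (interaction −1.07, SE 0.136). Its amount rose more in aPVAT (difference 34.3 CPM, SE 7.61), so the sign of the interaction depends on whether folds or amounts are compared. Psph, the last enzyme of serine synthesis, had the other sign, with 27.6 and 17.6 CPM in tPVAT and 13.7 and 15.5 CPM in aPVAT (0.83, SE 0.18, adjusted p = 0.042). The Psph call was lost in 10 of the 15 fits that left out 1 library (adjusted p up to 0.0892).

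Aldh3b2 and Aldh3b3, neighbouring genes for fatty aldehyde dehydrogenases on chromosome 19 (3972328 to 3981646 and 3958645 to 3972103), shared the pattern. Aldh3b2 stood at 19.6, 15.5, 14.6 and 16.4 CPM in tPVAT controls and at 172, 142, 165 and 186 CPM in tPVAT cKO. The aPVAT libraries held 41.9, 36.5, 34.96 and 41.0 CPM in controls and 95.1, 79.6 and 103 CPM in cKO. In controls aPVAT lay above tPVAT, and in cKO tPVAT lay above aPVAT, with no overlap in either. The interaction was −2.07 (SE 0.161, adjusted p = 7.1e-06), and amounts also rose more in tPVAT (difference −95.9 CPM, SE 11.7). Aldh3b3 stood near 0.916 and 6.71 CPM in tPVAT and near 1.90 and 4.75 CPM in aPVAT (interaction −1.54, SE 0.185). Reep6, which shapes the endoplasmic reticulum, started at similar levels in the depots (35.2 CPM in tPVAT controls and 40.1 CPM in aPVAT controls) and stood at 321, 213, 371 and 409 CPM in tPVAT cKO against 143, 130 and 164 CPM in aPVAT cKO. Here the knockout groups did not overlap, and the interaction was −1.36 (SE 0.224, adjusted p = 0.0056).

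Ccnd2, a D-type cyclin, stood at 62.9, 70.4, 68.0 and 62.3 CPM in tPVAT controls, 247, 258, 272 and 275 CPM in tPVAT cKO, 130, 144, 150 and 126 CPM in aPVAT controls and 244, 250 and 278 CPM in aPVAT cKO. The knockout libraries of both depots thus overlapped, from different starting levels. Its interaction was −1.09 (SE 0.106, adjusted p = 9.54e-05). Qsox1, a secreted sulfhydryl oxidase, ended level as well, at 75.4 CPM in tPVAT cKO and 76.8 CPM in aPVAT cKO, from 33.7 and 54.7 CPM in the controls (interaction −0.67, SE 0.114, adjusted p = 0.00741). Slc25a10, the mitochondrial dicarboxylate carrier, rose by 1.76 in tPVAT and 0.81 in aPVAT on the log2 scale (interaction −0.95, SE 0.152). Slc16a12, a creatine transporter, rose by 2.45 and 1.21 (interaction −1.25, SE 0.183).

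**Figure D2:**
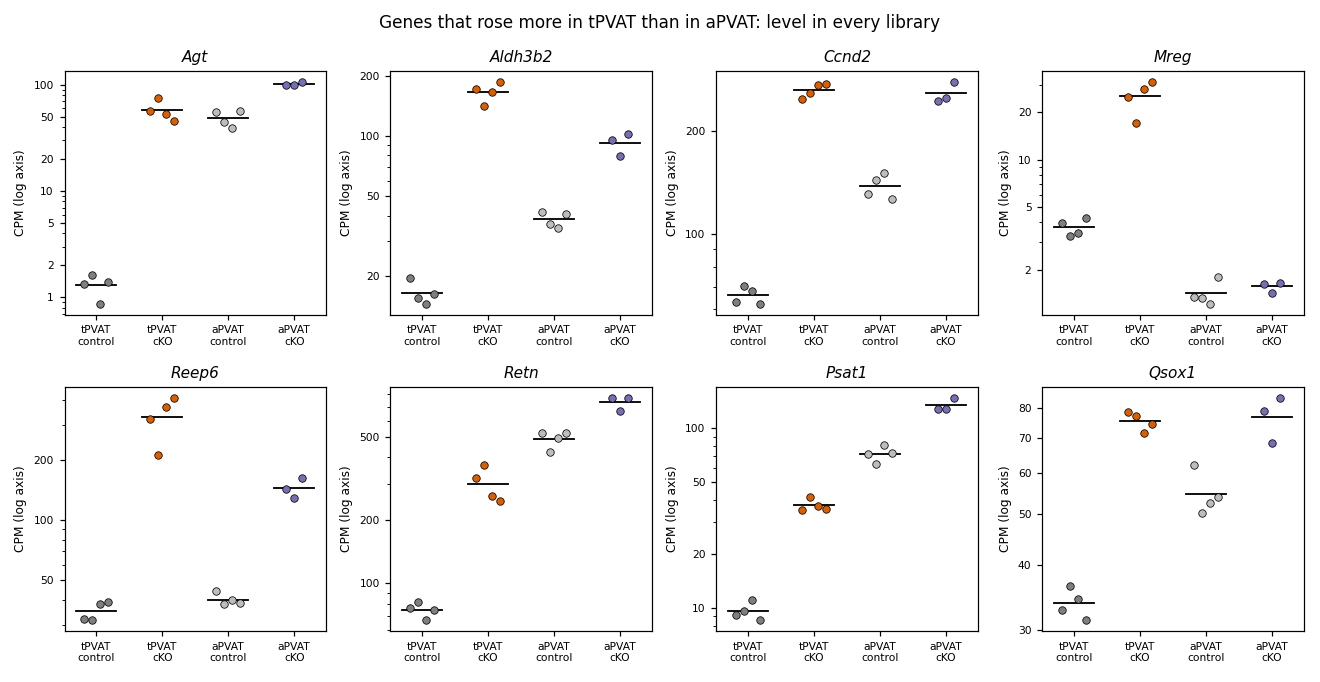
Each panel shows 1 gene in the 15 libraries, as CPM on a log axis, with 1 point per library and a bar at the group mean. Agt, Ccnd2, Retn, Psat1 and Qsox1 started lower in tPVAT controls than in aPVAT controls, Mreg was high in tPVAT cKO, and Aldh3b2 and Reep6 reached their highest levels in tPVAT cKO.

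Other genes rose in tPVAT and showed an aPVAT difference that missed the threshold. Mreg, a regulator of melanosome transport, stood at 4.00, 3.30, 3.45 and 4.26 CPM in tPVAT controls and at 25.0, 17.1, 28.1 and 31.3 CPM in tPVAT cKO. In aPVAT it stood at 1.35, 1.32, 1.22 and 1.80 CPM in controls and 1.63, 1.43 and 1.65 CPM in cKO, which overlap. Its interaction was −2.62 (SE 0.258, adjusted p = 9.72e-05). Rassf3, a Ras-association domain gene, stood at 63.3 and 195 CPM in tPVAT controls and cKO and at 53.9 and 65.8 CPM in aPVAT (interaction −1.33, SE 0.157). Ctnna1, the adhesion protein alpha-catenin, was level in the controls (202 CPM in tPVAT and 201 CPM in aPVAT) and stood at 364 and 210 CPM in cKO (interaction −0.79, SE 0.0854). Pde1b, a cyclic nucleotide phosphodiesterase, stood at 5.77 and 16.9 CPM in tPVAT and at 8.03 and 8.46 CPM in aPVAT (interaction −1.47, SE 0.158). Alpl, tissue-nonspecific alkaline phosphatase, which acts in the creatine cycle of thermogenic fat, stood at 26.6 and 43.6 CPM in tPVAT and at 8.10 and 7.21 CPM in aPVAT (interaction −0.88, SE 0.0915). Adgrg2, Sh3tc1, Heph and Krt222 had interactions of −1.26, −1.09, −0.88 and −1.55.

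Further genes below 0 came from the gene lists. Esrrb, an estrogen-related receptor, stood at 1.52, 0.768, 1.36 and 1.01 CPM in tPVAT controls and at 6.81, 8.03, 9.79 and 11.0 CPM in tPVAT cKO. In aPVAT it stayed at or below 0.332 CPM in all 7 libraries (interaction −2.95, SE 0.568, adjusted p = 0.0181). The Esrrb interaction missed the threshold without aPVAT cKO 3, aPVAT control 1 or aPVAT control 4 (adjusted p up to 0.0729) and with voom (0.151). Ucp2, a carrier related to Ucp1, stood at 99.2 and 243 CPM in tPVAT and 144 and 150 CPM in aPVAT (interaction −1.24, SE 0.263, adjusted p = 0.0375). The Ucp2 call was lost in 9 of the 15 fits that left out 1 library (adjusted p up to 0.106). Cyp2e1, a cytochrome P450 that adipocytes as well as liver express, stood at 556 and 1515 CPM in tPVAT and 4029 and 4387 CPM in aPVAT (interaction −1.32, SE 0.187). Serpina3c (−1.11) and the peroxisomal transporter Abcd2 (−0.94) also passed in tPVAT and not in aPVAT, while Serpina1a (−1.61) rose in both depots, by 2.38 and 0.77 on the log2 scale. The serpin genes have near-identical relatives, so their counts may be shared among copies. Abcd2 missed the threshold when only the numbers 1, 3 and 4 were used (adjusted p = 0.1).

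Another class of genes, several of them thermogenic, was lower in aPVAT cKO by a larger fold than in tPVAT cKO. Of 74 genes that passed the threshold in aPVAT and not in tPVAT, 11 were also called in the interaction. All 11 fell in aPVAT, namely Ucp1, Cidea, Cox7a1, Cpt1b, Slc27a2, Fabp3, Fabp3-ps1, C030037D09Rik, Plet1os, Tmem45b and Cyp27a1. In tPVAT 7 of the 11 were also lower in cKO without passing, among them Ucp1, Cidea, Cox7a1 and Cpt1b. Missing the threshold in tPVAT does not show an unchanged level, since the spread of a gene was estimated from both depots together. All 11 were higher in tPVAT than in aPVAT in controls. Their median difference between the depots in controls, 3.21 on the log2 scale, was 5.82 in cKO. This widening is no separate result, since a gene higher in tPVAT controls with an interaction below 0 must show it. Calls of Tmem45b (adjusted p = 0.0261) and Cyp27a1 (adjusted p = 0.0473) were lost in 9 and 12 of the 15 fits that left out 1 library (adjusted p up to 0.0902 and 0.116). Both calls were also lost when the replicate number was a block, across or within genotypes.

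Ucp1, the uncoupling protein of brown fat (chromosome 8, 83290352 to 83298452, plus strand), stood at 6358, 5935, 6581 and 6154 CPM in tPVAT controls and at 3995, 3497, 4325 and 4420 CPM in tPVAT cKO. Its aPVAT values were 724, 363, 731 and 365 CPM in controls and 5.56, 47.8 and 3.15 CPM in cKO 1, 3 and 4. The genotypes did not overlap in either depot, and aPVAT cKO 3 lay far above the other libraries of its group. The fold change was −0.62 (SE 0.543, adjusted p = 0.508) in tPVAT and −4.84 (SE 0.724, adjusted p = 0.00169) in aPVAT, and the interaction was −4.22 (SE 0.849, adjusted p = 0.0256). Each gene has 1 estimate of spread for all 15 libraries, so the scatter within aPVAT cKO also enters the SE in tPVAT. The missed threshold in tPVAT therefore does not show that Ucp1 was unchanged there. Without aPVAT cKO 3 the interaction was −6.32. DESeq2 gave Ucp1 no adjusted p for the interaction, so Ucp1 was not among its calls. The Ucp1 interaction missed the threshold when aPVAT cKO 1 was left out (adjusted p = 0.0581), and likewise for aPVAT control 3 (0.0555), tPVAT control 1 (0.0615), tPVAT control 3 (0.0558) and tPVAT control 4 (0.0606), and when only the numbers 1, 3 and 4 were used (0.09). In amounts the order was reversed, with a wider gap between the genotypes in tPVAT than in aPVAT (difference 1671 CPM, SE 272).

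Cidea, a lipid-droplet protein of thermogenic fat, stood at 1519, 1500, 1455 and 1579 CPM in tPVAT controls and at 1391, 1274, 1286 and 1366 CPM in tPVAT cKO. The aPVAT libraries held 252, 176, 228 and 182 CPM in controls and 76.8, 58.7 and 52.8 CPM in cKO. Its tPVAT fold change of −0.19 (adjusted p = 0.348) and aPVAT fold change of −1.74 (SE 0.136) gave an interaction of −1.55 (SE 0.178, adjusted p = 0.000303). Cox7a1, a subunit of cytochrome oxidase found in heart, muscle and brown fat, stood at 237, 219, 244 and 207 CPM in tPVAT controls and at 149, 114, 198 and 169 CPM in tPVAT cKO. In aPVAT it stood at 28.4, 16.1, 29.0 and 16.7 CPM in controls and at 1.54, 3.19 and 1.82 CPM in cKO (interaction −2.83, SE 0.354, adjusted p = 0.000597). In both depots every cKO library lay below every control, by a far larger fold in aPVAT.

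Fatty acid handling genes among the 11 were Cpt1b, Fabp3 and Slc27a2. Cpt1b, which loads long-chain fatty acids into mitochondria, stood at 21.2, 21.4, 21.6 and 19.4 CPM in tPVAT controls, 14.9, 11.6, 15.0 and 17.4 CPM in tPVAT cKO, 3.45, 2.03, 3.59 and 1.80 CPM in aPVAT controls and 0.215, 0.334 and 0.214 CPM in aPVAT cKO (interaction −2.88, SE 0.347). Fabp3, a fatty acid binding protein of heart and brown fat, stood at 296, 238, 268 and 289 CPM in tPVAT controls and at 368, 260, 357 and 426 CPM in tPVAT cKO, which overlap. Its aPVAT values were 34.3, 14.3, 27.8 and 17.2 CPM in controls and 1.41, 4.26 and 1.39 CPM in cKO (interaction −3.65, SE 0.473, adjusted p = 0.000852). Fabp3-ps1, its processed pseudogene, gave −3.66, and reads of these near-identical sequences may be shared between them. Slc27a2, a fatty acid transporter and acyl-CoA synthetase, stood at 130 to 185 CPM in tPVAT controls and 77.1 to 136 CPM in tPVAT cKO, and at 14.1, 12.6, 22.4 and 10.1 CPM in aPVAT controls and 1.04, 1.88 and 2.29 CPM in aPVAT cKO (interaction −2.60, SE 0.385).

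Among the 8 interaction genes that fell in both depots, Cpn2, Otop1, Acot11 and Pdk4 fell more in aPVAT. Cpn2, the regulatory subunit of carboxypeptidase N, stood at 65.3, 55.0, 52.2 and 62.8 CPM in tPVAT controls and 17.4, 12.8, 15.3 and 19.5 CPM in tPVAT cKO. The aPVAT libraries held 9.91, 4.42, 7.09 and 5.18 CPM in controls and 0.249, 0.345 and 0.214 CPM in cKO. The 4 groups did not overlap, and the interaction was −2.72 (SE 0.381, adjusted p = 0.0016). Pdk4, the kinase that turns off pyruvate dehydrogenase, fell from 1359 to 945 CPM in tPVAT and from 188 to 49.9 CPM in aPVAT (interaction −1.39, SE 0.236). Acot11, a thioesterase of brown fat, fell by 0.52 and 1.95 on the log2 scale (interaction −1.43, SE 0.239), and Otop1, a proton channel, fell by 0.66 and 1.96 (interaction −1.30, SE 0.193). The 4 genes that fell more in tPVAT were Slc40a1, Pm20d1, Aig1 and Kctd15, given further on.

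**Figure D3:**
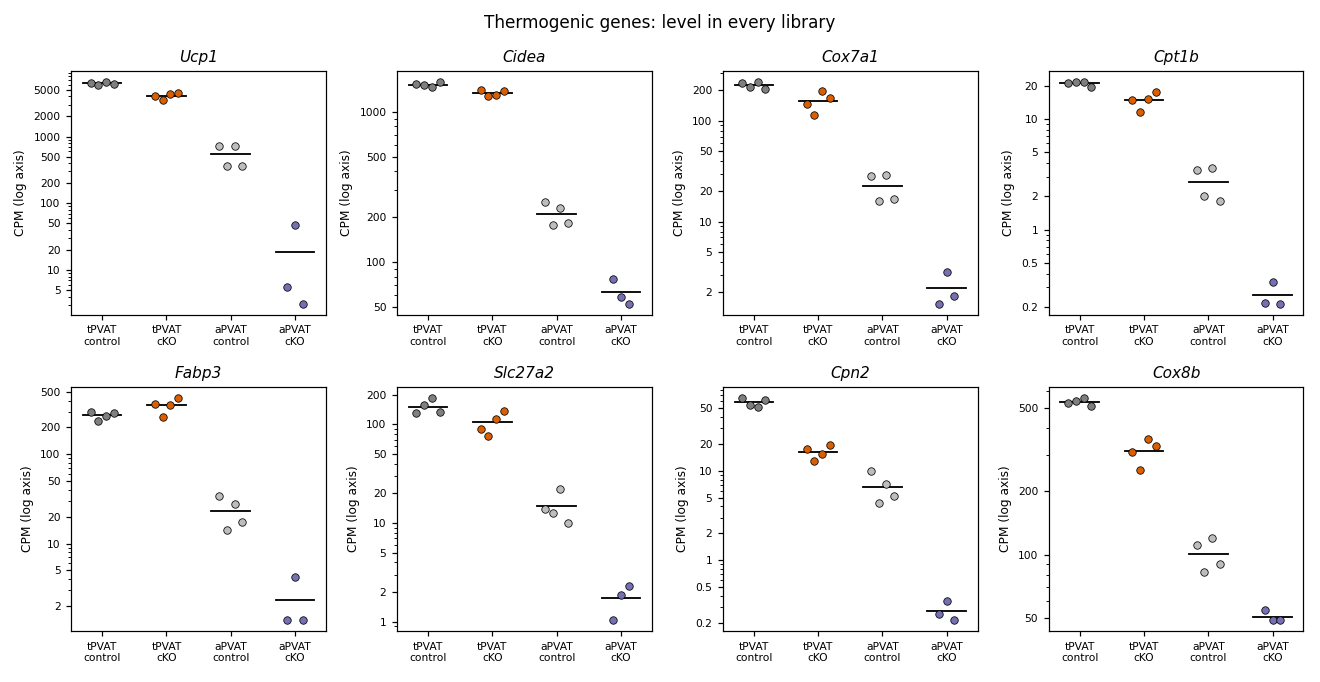
Each panel shows 1 thermogenic gene in the 15 libraries, as CPM on a log axis, with 1 point per library and a bar at the group mean. The aPVAT cKO points lie far below the aPVAT controls for Ucp1, Cox7a1, Cpt1b, Fabp3, Slc27a2 and Cpn2, while Cox8b (interaction −0.22) shows steps of similar height in both depots.

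As a list, 39 of 40 thermogenic adipocyte genes were tested, 2 were called above 0 and 11 below 0, against 0.158% and 0.626% of all genes tested. The list median was −0.41, against −0.01 for all genes tested. Of the 11 below 0, 10 fell more in aPVAT. The other was Bmp8b, a secreted factor of brown fat, which rose in tPVAT from 0.172 to 3.75 CPM, that is from 10, 9, 4 and 10 counts to 250, 141, 269 and 147 counts. In aPVAT it held 1, 3, 2 and 3 counts in controls and 3, 4 and 0 counts in cKO, so the size of its interaction rests on near-empty groups and is not given. The Bmp8b call (adjusted p = 0.0432) was lost with voom (0.106) and in 11 of the 15 fits that left out 1 library (up to 0.158). Impdh1, an enzyme of guanine nucleotide synthesis (0.60, SE 0.128, adjusted p = 0.0365), and Pm20d1 were above 0. The Impdh1 call was lost with total counts only (adjusted p = 0.113) and in 9 of the 15 fits that left out 1 library (up to 0.106). Several defining members were not called. Cox8b, another cytochrome oxidase subunit of brown fat and muscle, fell in both depots, by 0.78 in tPVAT and 0.998 in aPVAT on the log2 scale, and its interaction was −0.22 (95% interval −0.57 to 0.14). The intervals were wider for Elovl3, a fatty acid elongase (−0.90, −1.63 to −0.16, adjusted p = 0.407), for Dio2, the deiodinase that makes active thyroid hormone (−0.81, −1.62 to −0.00, adjusted p = 0.564), and for Ppargc1a, a coactivator of mitochondrial genes (−0.25, −0.88 to 0.38). Ebf2, a DNA-binding partner of PRDM16, had an interaction of 0.01 (−0.26 to 0.27) at 61.3 and 53.3 CPM in tPVAT and 39.5 and 34.5 CPM in aPVAT.

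Markers of heart muscle moved with genotype in tPVAT, where 4 of 13 fell, against 6.61% of all genes tested. Their summed level was 199 to 259 CPM in tPVAT controls and 88.5 to 205 CPM in tPVAT cKO, and it was 33.6 to 40.5 CPM in aPVAT controls and 36.2 to 42.8 CPM in aPVAT cKO. All 13 tested heart markers had an interaction above 0 (median 0.73) and 0 were called with edgeR. Of them, 4 had an unadjusted p under 0.05, against 1738 of 19645 over all genes tested. DESeq2 and voom each called 1 heart marker, Ryr2, the calcium release channel. Fabp3, Cox7a1, Cpt1b and Pdk4, which heart muscle also expresses, had interactions below 0. Myh6, the atrial myosin, stood at 97.6 and 57.0 CPM in tPVAT and at 0.196 and 0.231 CPM in aPVAT. Interactions also lay above 0 for 14 of 15 skeletal muscle markers (median 1.54), 13 of 14 of smooth muscle (0.36), 8 of 8 of pericytes (0.25) and 15 of 16 of endothelium (0.19). Of these, 1, 1, 4 and 4 fell in tPVAT and 0 were called in the interaction with edgeR, 4, 3, 4 and 3 having an unadjusted p under 0.05. DESeq2 called 1 of them, Xirp2 of skeletal muscle, and voom 0. Summed levels in tPVAT controls and cKO were 21.2 to 83.6 and 16.6 to 29.8 CPM for skeletal muscle, 2180 to 2837 and 1969 to 2335 CPM for smooth muscle, 561 to 571 and 509 to 579 CPM for pericytes, and 1319 to 1533 and 1216 to 1392 CPM for endothelium. Other lists leaned below 0, such as macrophages, with 14 of 15 markers below (median −0.38), and lymphocytes, with 13 of 15 (−0.63). Fibroblasts and progenitors had 14 of 15 below 0 (−0.18) and sympathetic neurons 17 of 17 (−0.07). No lymphocyte or neuron marker was called by edgeR, DESeq2 or voom. Macrophage markers summed to 1148 to 1579 CPM in aPVAT controls and 783 to 1214 CPM in aPVAT cKO, with 400 to 467 and 365 to 513 CPM in tPVAT (0 of 15 called by edgeR, DESeq2 or voom, 5 at an unadjusted edgeR p under 0.05). Fibroblast and progenitor markers summed to 7203 to 9245 CPM and 5811 to 7272 CPM in aPVAT, and to 1594 to 1863 CPM and 1778 to 2415 CPM in tPVAT (0 of 15 called by edgeR, 2 at an unadjusted p under 0.05, and 1, Dpt, by DESeq2). Adipoq, the adiponectin gene that all adipocytes express, stood at 836 and 1115 CPM in tPVAT controls and cKO, and at 1572 and 1558 CPM in aPVAT (interaction −0.43, SE 0.139, adjusted p = 0.274). Without the 2 libraries high in structural RNA, Adipoq was called (−0.62, adjusted p = 0.0153). The part of these cell types in the interaction was not tested.

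The promoters of Ucp1 and Slc27a2 are shown because they hold a hexamer that nuclear receptors such as PPARs bind, and they were picked for that match. A link between the hexamer and the fall in aPVAT was not tested. Windows from 250 bases before to 50 bases after the RefSeq start (GRCm38.p6) were at hand for 7 of the 11 interaction genes called in aPVAT alone. This set was searched after its values were seen. The hexamer AGGTCA, read on both strands and in capitals here (as its reverse complement in Slc27a2), was in 2 of these 7 windows, in 1 of 11 windows of the named genes above 0, in 2 of 13 windows of those below 0, and in 16.3% of all 32851 windows of the table.

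Ucp1, chr8:83290098-83290397, plus strand: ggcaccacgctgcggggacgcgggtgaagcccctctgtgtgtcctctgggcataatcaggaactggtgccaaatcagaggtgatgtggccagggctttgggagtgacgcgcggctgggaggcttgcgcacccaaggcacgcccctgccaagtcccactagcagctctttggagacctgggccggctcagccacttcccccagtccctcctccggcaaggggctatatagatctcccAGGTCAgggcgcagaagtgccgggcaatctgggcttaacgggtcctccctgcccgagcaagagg

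Slc27a2, chr2:126552774-126553073, plus strand: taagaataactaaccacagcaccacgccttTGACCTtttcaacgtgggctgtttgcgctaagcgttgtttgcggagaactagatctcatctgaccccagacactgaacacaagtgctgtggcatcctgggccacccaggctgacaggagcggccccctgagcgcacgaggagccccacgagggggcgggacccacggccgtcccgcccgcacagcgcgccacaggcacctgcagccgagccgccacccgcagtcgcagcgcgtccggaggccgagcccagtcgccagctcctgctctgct

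None of the windows of these genes held a direct repeat of the hexamer spaced by 1 base (0.0396% of all windows), TCAAGGTCA, the site of estrogen-related receptors (0.423%), or the EBF motif (TCCC and GGGA spaced by 2 bases, 0.904%). TGACGTCA, the cyclic AMP response element, was in 1 of the 7 windows, that of C030037D09Rik (1.79% of all windows). Some hexamer matches can lie within the longer motifs. A match is a description of these letters and shows no binding.

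All 31 called genes above 0 fell in tPVAT with the loss of Prdm16, 4 of them in aPVAT as well. All but 1 were higher in tPVAT than in aPVAT controls, while 52.5% of all genes tested were higher in aPVAT controls. The same control libraries enter the interaction. Gldn, the secreted adhesion protein gliomedin (chromosome 9, 54286486 to 54341786, plus strand), stood at 21.1, 10.1, 12.4 and 14.4 CPM in tPVAT controls and at 2.04, 2.25, 2.03 and 2.40 CPM in tPVAT cKO. In aPVAT it stood at 2.92, 2.48, 2.10 and 1.59 CPM in controls and at 2.31, 2.70 and 2.35 CPM in cKO. So tPVAT cKO came to lie within the aPVAT range, and the aPVAT groups overlapped. The fold change was −2.73 (SE 0.212) in tPVAT and 0.12 (SE 0.224, adjusted p = 0.866) in aPVAT, with an interaction of 2.85 (SE 0.304, adjusted p = 0.000172).

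Slc40a1, the iron exporter ferroportin, stood at 21.96, 23.2, 17.2 and 22.4 CPM in tPVAT controls and 5.04, 5.91, 5.63 and 5.54 CPM in tPVAT cKO. Its aPVAT values were 6.58, 7.16, 7.66 and 6.68 CPM in controls and 4.86, 3.80 and 4.82 CPM in cKO. It fell in both depots, by 1.94 (SE 0.108) and 0.65 (SE 0.116) on the log2 scale, and the interaction was 1.29 (SE 0.156, adjusted p = 0.000404). Heph, the ferroxidase that works with ferroportin, had an interaction of the other sign, with 9.83 and 20.8 CPM in tPVAT and 52.2 and 60.1 CPM in aPVAT (−0.88, SE 0.0961, adjusted p = 0.00018). Pm20d1, a secreted enzyme that makes N-acyl amino acids, stood at 34.2, 32.1, 32.9 and 33.8 CPM in tPVAT controls and 11.2, 10.7, 9.71 and 11.3 CPM in tPVAT cKO. The aPVAT libraries held 9.14, 6.59, 8.25 and 6.24 CPM in controls and 4.59, 4.24 and 5.44 CPM in cKO (interaction 0.96, SE 0.163, adjusted p = 0.00706). In tPVAT cKO, Slc40a1 lay just below and Pm20d1 just above the aPVAT controls.

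Other named genes above 0 fell in tPVAT and did not pass in aPVAT. Car2, a carbonic anhydrase, stood at 15.9 and 11.0 CPM in tPVAT and at 4.94 and 6.07 CPM in aPVAT (interaction 0.83, SE 0.111, adjusted p = 0.00103). Pitpnc1, a phosphatidylinositol transfer protein, stood at 43.3 and 25.5 CPM in tPVAT and at 21.8 and 22.1 CPM in aPVAT (0.79, SE 0.112). Smarcd1, a subunit of the SWI/SNF chromatin remodeller, stood at 37.7 and 21.6 CPM in tPVAT and at 20.5 and 18.9 CPM in aPVAT (0.69, SE 0.123). Fndc10 differed from these, since its controls were close (5.03 CPM in tPVAT and 4.46 CPM in aPVAT) and tPVAT cKO alone was low at 2.56 CPM, against 4.77 CPM in aPVAT cKO (1.07, SE 0.156). Rom1 (0.99) and Arntl2, a circadian transcription factor (0.93), had the same sign. Gpc1, a glypican, had an interaction of 1.01 (SE 0.192, adjusted p = 0.0168), and missed the threshold without aPVAT cKO 3 (adjusted p = 0.0543) and without the 2 libraries high in structural RNA (0.0611).

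Aig1, Kctd15, Gngt2, P2ry1 and Pctp had interactions from 0.43 to 0.97 with adjusted p from 0.0261 to 0.0291. Their calls were lost in 7, 7, 8, 8 and 10 of the 15 fits that left out 1 library, with adjusted p up to 0.0909, 0.0733, 0.0997, 0.0854 and 0.113. With total counts only, all but P2ry1 lost the call (adjusted p up to 0.203), and P2ry1 did with voom (0.0552). Blocking by replicate number, across or within genotypes, also lost the calls of Aig1, Gngt2, P2ry1 and Pctp. Aig1, a hydrolase of fatty acid esters of hydroxy fatty acids, fell by 0.81 in tPVAT and 0.36 in aPVAT on the log2 scale. Kctd15 fell by 0.98 and 0.44. The others passed in tPVAT alone, including P2ry1, a receptor for ADP (8.95 and 3.92 CPM in tPVAT, 4.57 and 3.93 CPM in aPVAT), and Pctp, a phosphatidylcholine transfer protein (19.1 and 13.95 CPM in tPVAT, 10.15 and 10 CPM in aPVAT).

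**Figure D4:**
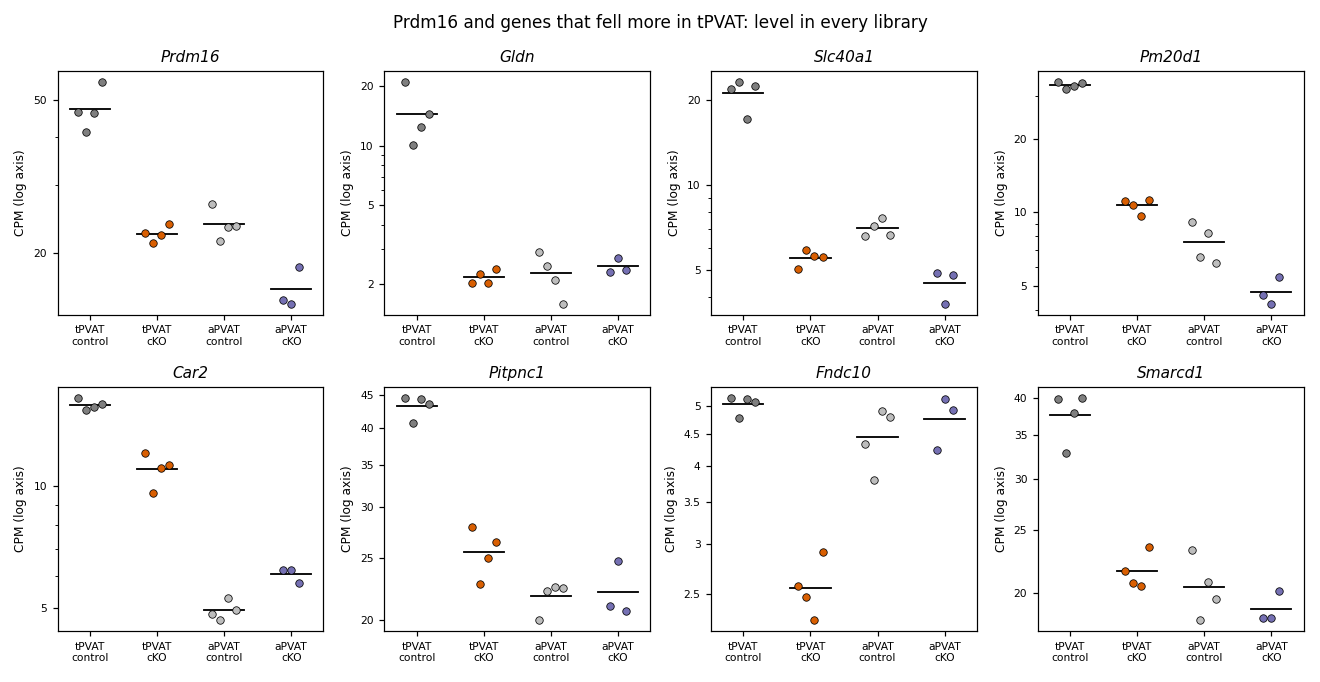
Each panel shows 1 gene in the 15 libraries, as CPM on a log axis, with 1 point per library and a bar at the group mean. Prdm16 fell in both depots (interaction 0.51, not called), Gldn, Pitpnc1 and Smarcd1 fell in tPVAT to about the aPVAT level, and Fndc10 was low in tPVAT cKO alone.

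Most genes that responded in both depots were not called in the interaction. Of the 227 genes called in both, 128 rose and 99 fell, and 195 were not called in the interaction. For 160 of these 195 the 95% interval of the interaction lay within 1 on the log2 scale on either side of 0, and for 106 it lay within 0.58, a change of 1.5-fold. Sc5d, an enzyme of cholesterol synthesis, stood at 108, 105, 121 and 112 CPM in tPVAT controls and 181, 185, 183 and 185 CPM in tPVAT cKO. In aPVAT it stood at 80.9, 86.0, 85.1 and 81.6 CPM in controls and 144, 135 and 135 CPM in cKO. It rose by 0.72 and 0.73 on the log2 scale, and the interaction was 0.01 (interval −0.16 to 0.18). Itpr2, a calcium channel of the endoplasmic reticulum, stood at 171 and 101 CPM in tPVAT and at 51.7 and 30.5 CPM in aPVAT, a fall of 0.76 in each depot (interaction −0.00, interval −0.24 to 0.23).

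Other genes of this kind had intervals that leave room for a moderate difference. Tlcd2, a membrane protein, rose by 1.71 in tPVAT and 1.32 in aPVAT (interaction −0.40, interval −0.71 to −0.09, adjusted p = 0.365). Acaa1b, a peroxisomal thiolase, rose by 1.96 and 1.59 (−0.37, interval −0.77 to 0.02). Me3, a mitochondrial malic enzyme, fell by 1.49 and 1.32 (0.18, interval −0.23 to 0.59). Trub2, Zfp949, Lrtm1 and Unc119 had interactions of −0.25, −0.30, −0.38 and −0.51. Myo5c, an unconventional myosin, stood at 32.1 and 4.07 CPM in tPVAT and at 4.90 and 1.17 CPM in aPVAT (interaction 0.90, interval 0.35 to 1.46, adjusted p = 0.173 with edgeR). DESeq2 called it, with an adjusted p of 0.0347.

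Apart from the muscle and heart isoforms of cytochrome oxidase, which include Cox7a1 and were listed separately (1 of 5 called with each tool), 3 lists of respiratory chain genes gave 0 calls in the interaction with edgeR, DESeq2 or voom. At an unadjusted edgeR p under 0.05 there were 3 of 36 nuclear genes of complex I, 1 of 40 of complexes II to V and 1 of 13 of the mitochondrial genome. Over all genes tested it was 1738 of 19645. Median interactions were 0.09, 0.06 and 0.22, against −0.01 for all genes tested. In tPVAT 32 of the 36 complex I genes fell and in aPVAT 1 fell, against 6.61% and 0.789% of all genes tested, with median log2 fold changes of −0.37 and −0.26. For complexes II to V the counts were 34 and 5 of 40, with medians of −0.36 and −0.30. Fatty acid oxidation had 16 of 26 genes called lower in tPVAT and 9 in aPVAT, and a median interaction of 0.02. Cpt1b was its 1 call in the interaction with edgeR, and DESeq2 and voom each called 3 (Cpt1b, Eci1 and Acsl5, 1 above and 2 below 0). Lipogenesis had 15 of 30 genes called higher in tPVAT and 9 in aPVAT, against 5.44% and 0.743% of all genes tested, a median interaction of 0.03 and 0 calls with edgeR (6 at an unadjusted p under 0.05), while DESeq2 called 2 (Agpat2 and Fads3) and voom 1 (Agpat2).

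White-fat selective genes leaned below 0. Of 30 tested, 27 lay below 0 with a median of −0.54, and 6 were called below 0 and 0 above: Agt, Retn, Psat1, Serpina3c, Slc7a10 and Trim14. The shares over all genes tested were 0.626% below and 0.158% above. Slc7a10, the amino acid transporter Asc-1, went from 13.8 to 44.9 CPM in tPVAT and stood at 73.5 and 94.1 CPM in aPVAT (interaction −1.35, SE 0.264, adjusted p = 0.0202). The Slc7a10 call was lost without aPVAT cKO 1, aPVAT cKO 3 or tPVAT control 1 (adjusted p up to 0.0747). Trim14, an innate immune adaptor, stood at 1.998 and 4.97 CPM in tPVAT and 6.87 and 8.41 CPM in aPVAT (−1.03, SE 0.176). Lep, the satiety hormone leptin, ranged widely within groups, with 14.1 to 55.7 CPM in tPVAT controls and 65.6 to 233 CPM in aPVAT controls (interaction −0.80, interval −2.03 to 0.43). Hoxb8, a patterning gene, was the 1 posterior Hox gene of 14 called with edgeR (DESeq2 and voom called Hoxc8 as well), at 5.997 and 9.87 CPM in tPVAT and 4.44 and 4.70 CPM in aPVAT (−0.64, SE 0.138, adjusted p = 0.042). Its call was lost in 12 of the 15 fits that left out 1 library (adjusted p up to 0.123). Blocking by replicate number, across or within genotypes, lost the Hoxb8 call as well.

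Among genes that act on vessels, 44 of 48 were tested, 4 were called below 0 (Agt, Cpn2, Enpep and Ptges) and 0 above, and the median interaction was 0.02. For this list and the next 3, the shares over all genes tested were 0.626% below and 0.158% above. Secreted adipokines had 4 below 0 (Retn, Cfd, Igf1 and Bmp8b) and 1 above (Pm20d1) of 28 tested, with a median of −0.10. Extracellular matrix genes had 1 call below 0 of 45 (Qsox1) and a median of −0.14. Genes for PRDM16 partners and corepressors had 1 call below 0 of 37 with edgeR (Esrrb, which voom did not call) and a median of −0.02.

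**Figure D5:**
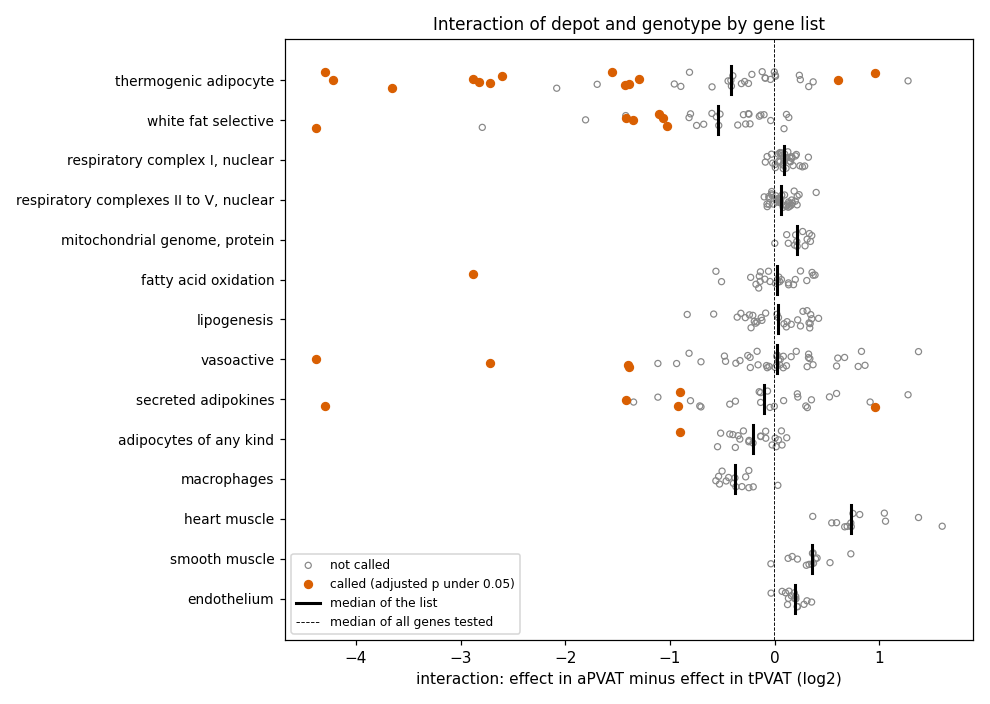
Each row is a gene list and each point a tested member, placed by its interaction on the log2 scale (aPVAT effect minus tPVAT effect). Filled points are called genes, the bars mark list medians, and the dashed line marks the median of all genes tested. Thermogenic and white-fat selective genes spread to the left, respiratory chain genes sit close to 0, and heart muscle markers lie to the right with 0 calls.

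The interaction can also be read as a change in the difference between the depots, which uses the same control libraries and is given as a description. The distance between aPVAT and tPVAT on the log2 scale was narrower in cKO than in controls for 64 of the 154 called genes, wider for 38, and of the other sign for 52. Among all genes tested it was narrower for 47.7%, wider for 40.1% and of the other sign for 12.3%. Among the 107 called genes that rose in tPVAT, 86 were higher in aPVAT controls, against 52.5% of all genes tested. Agt went from 5.21 higher in aPVAT to 0.83 higher. Among the 35 that fell in tPVAT, 1 was higher in aPVAT controls, and Gldn went from 2.67 lower in aPVAT to 0.18 higher. For the 11 interaction genes called in aPVAT alone the depots moved further apart, such as Cox7a1, from 3.33 to 6.16 lower in aPVAT.

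A comparison of amounts in place of folds changed the sign in 18 of the 154 genes (11.7%), and in 9 of them the difference in CPM exceeded 2 SE. These 18 included 6 of the 11 interaction genes called in aPVAT alone and 9 of the 32 called in both depots. The gap between control and cKO was 48.8 CPM wider in tPVAT than in aPVAT for Cox7a1 (SE 19.9) and 36.2 CPM wider for Cpn2 (SE 3.64), although the fold was larger in aPVAT for both. For Mreg, Reep6, Aldh3b2, Rassf3, Gldn and Slc40a1 folds and amounts had the same sign. In 2 called genes, Kcnf1 in aPVAT controls and Gm8895 in tPVAT controls, a whole group stood at 0 counts, so no fold is given. Kcnf1 lay at 0.184 to 0.298 CPM in tPVAT controls and at most 0.0501 CPM elsewhere, and it was not called when aPVAT cKO 1 or aPVAT cKO 3 was left out (adjusted p up to 0.155). Nor was Kcnf1 called when the replicate number was a block, across or within genotypes. Gm8895 lay at 0.286 to 0.557 CPM in tPVAT cKO and 0.259 to 1.01 CPM in aPVAT. Phospho1, which passed in neither depot alone, stood at 47.4 and 66.3 CPM in tPVAT and at 5.08 and 2.99 CPM in aPVAT (interaction −1.23, SE 0.263, adjusted p = 0.0382), and lost its call in 11 of the 15 fits that left out 1 library (adjusted p up to 0.113).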

How the data were processed

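Poly(A) RNA of tPVAT and aPVAT was sequenced from stranded libraries, per the labels' protocols. The authors deposited 1 table of raw counts for 43352 Ensembl genes and 15 libraries, with no normalization. The submitters' processing notes list mm10 as the build and Salmon, Subread and DESeq2 1.42.1 among tools, with no step assigned to any. How strand was treated in counting is not given in those sources, so genes overlapping on opposite strands (among those named: Prdm16, Cidea, Elovl3, Dio2, Ppargc1a, Ebf2, Qsox1, Gldn, Pitpnc1, Smarcd1, Gpc1, Kctd15, Gngt2, P2ry1, Ccnd2, Adgrg2, Ctnna1, Heph, Sh3tc1, Fabp3, Psat1, Slc27a2, Psph, Slc16a12, Enpep, Igf1, Slc25a10, Ucp2, Acaa1b, Trub2, Itpr2, Me3, Lrtm1, Tmem45b and Phospho1) may hold reads of neighbours. A library numbered 2 of the aPVAT knockouts was not analysed here.

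Groups came from the labels, and symbols and locations from GENCODE M21 on GRCm38 (98.0% of identifiers matched). In R 4.3.3, edgeR 4.0.16 kept genes by filterByExpr (minimum count 10, 19645 genes, 99.98% of counts) and scaled libraries by TMM. One quasi-likelihood model with a mean per group was fitted to all 15 libraries, and F tests gave the effect in each depot and the interaction, with Benjamini-Hochberg adjustment over all genes tested and a threshold of 0.05. The SE is the size of the log2 value divided by the square root of F, and intervals are 95%. Scripts were tested on simulated data. CPM values of single genes use the TMM-scaled library sizes, and summed marker levels use total counts alone. Differences in CPM between depots are from group means, with SEs from the group SDs and no test.

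Alternatives were other scalings, filters, DESeq2 1.42.0, voom (limma 3.58.1), replicate blocks, and leaving out libraries. Same-numbered tPVAT control and cKO libraries deviated together in 4 of 4 pairs (correlation 0.107 to 0.396), so the pairing rule was met there. Across depots within genotype 4 of 7 same-numbered pairs passed 0.1 (−0.110 to 0.323, median 0.102), against 5 of 21 other-numbered pairs (median −0.036). In aPVAT 1 of 3 same-numbered pairs did. So few pairs cannot settle whether the numbers pair the libraries for the interaction, and the main model treated them as unpaired. No library pair within a group agreed within sampling noise (chi-square per degree of freedom at least 10.5).

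The question, gene lists and naming rule were chosen with earlier results of these data known. Named are a panel of 15 genes (Prdm16, Agt, Retn, Lep, Adipoq, Qsox1, Reep6 and, of thermogenic genes, Ucp1, Cidea, Cox7a1, Cox8b, Ebf2, Elovl3, Ppargc1a and Dio2), the 15 called genes with the smallest p on either side of 0 with mean log2 CPM of at least 1 and no predicted genes, up to 4 called members of each list with the smallest p, 10 genes called in both depots and not in the interaction, and genes of a count of 5 or fewer. Other genes (Hoxc10, Myh6, Ptger3, Otop1, Acot11, Ryr2, Xirp2, Dpt, Eci1, Acsl5, Hoxc8, Agpat2, Fads3, Bmp8b, Impdh1, Slc7a10 and Trim14) were named after their values were seen. Sequences are RefSeq promoters.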

Additional observations from a re-analysis of the deposited data

Results flagged for a closer look

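The genotype effect differed between aPVAT and tPVAT by the interaction test in 154 genes, and the values below are interactions on the log2 scale, the aPVAT effect minus the tPVAT effect. Among thermogenic and other genes that were lower in aPVAT cKO they were Ucp1 −4.22, Cidea −1.55, Cox7a1 −2.83, Cpt1b −2.88, Fabp3 −3.65, Fabp3-ps1 −3.66, Slc27a2 −2.60, Cpn2 −2.72, Pdk4 −1.39, Tmem45b −0.59, Cyp27a1 −0.63 and Phospho1 −1.23. Among genes of white fat, secreted factors, vessel-active genes and others that rose in tPVAT they were Agt −4.38, Retn −1.42, Psat1 −1.07, Serpina3c −1.11, Cfd −0.91, Igf1 −0.93, Enpep −1.40, Ptges −1.39, Qsox1 −0.67, Cyp2e1 −1.32, Serpina1a −1.61 and Hoxb8 −0.64. The other named genes below 0 were Reep6 −1.36, Aldh3b2 −2.07, Ccnd2 −1.09, Mreg −2.62, Adgrg2 −1.26, Alpl −0.88, Pde1b −1.47, Ctnna1 −0.79, Heph −0.88, Sh3tc1 −1.09, Rassf3 −1.33, Krt222 −1.55, Aldh3b3 −1.54, Esrrb −2.95, Abcd2 −0.94, Slc16a12 −1.25, Slc25a10 −0.95 and Ucp2 −1.24. Those above 0 were Gldn 2.85, Slc40a1 1.29, Car2 0.83, Pitpnc1 0.79, Fndc10 1.07, Rom1 0.99, Arntl2 0.93, Pm20d1 0.96, Smarcd1 0.69, Gpc1 1.01, Aig1 0.45, Kctd15 0.54, Gngt2 0.79, P2ry1 0.97, Pctp 0.43 and Psph 0.83.

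Single libraries stood apart from the other 3 of their group in 4 of 126 groups of 4 libraries examined among the named genes, and chance alone marks about 1 in 20 such groups. These were aPVAT control 1 for Elovl3 (13.4 CPM) and Pitpnc1 (19.97 CPM), tPVAT control 3 for Aldh3b3 (0.758 CPM) and aPVAT control 4 for Aldh3b3 (1.56 CPM). Aldh3b3 and Pitpnc1 were called with each library left out in turn, and Elovl3 was not called with any left out.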

How the results depend on the processing

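All 154 called genes had the same sign in each alternative in which they were tested. The 154 calls (31 above and 123 below 0) became 350 with DESeq2 (105 above, 245 below, 152 shared with the 154). Calls above 0 numbered 59 with voom and library weights, and 19 when libraries were scaled by total counts only, where 9.50% of calls were above 0 against 20.1% and the median of all genes shifted by −0.09. With the replicate number as a block (replicate block) 160 genes were called (23 above, 137 below, 132 shared with the 154), and 148 with the block within genotype (109 shared). Of the named genes, Aig1, Gngt2, P2ry1, Pctp, Hoxb8, Tmem45b, Cyp27a1 and Kcnf1 missed the threshold under both blocks, and Arntl2, Abcd2 and Impdh1 under the block within genotype. Bmp8b missed it under the replicate block (adjusted p = 0.056). Leaving out 1 library gave 114 to 189 calls, with 93 to 145 below 0 and 18 to 49 above 0. Calls above 0 fell to 19, 19, 18 and 19 without aPVAT control 3, aPVAT control 4, tPVAT control 1 and tPVAT control 4, and numbered 49 without aPVAT control 1. The genes called in aPVAT with 1 library left out numbered 161 (without aPVAT cKO 1) to 398, against 301. There were 606 with DESeq2 and 92 with only the 7 aPVAT libraries, and genes called in tPVAT numbered 4080 with voom and 3726 with only its own 8 libraries. The cause was not tested.

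Interactions near 0 changed sign. The Ppargc1a interaction was 0.0757 without the 2 libraries high in structural RNA. The Ebf2 interaction was −0.0817 with total counts, −0.00143 without the filter, −0.0288 with the block within genotype and −0.0507 to 0.0607 leaving out 1 library. The Sc5d interaction was −0.0857 with total counts and −0.0327 to 0.0385 leaving out 1 library. The Itpr2 interaction was 0.00203 with DESeq2's size factors, 0.0203 without the mitochondrial genome, 0.00074 with DESeq2, 0.0192 with voom, 0.000802 at a minimum count of 50, 0.0114 with numbers 1, 3 and 4 only, and −0.0453 to 0.0603 leaving out 1 library.

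DESeq2 gave Ucp1 no adjusted p. Depth limits genes such as Kcnf1, with at most 0.298 CPM.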
